A study of Caenorhabditis elegans with 2 samples.

Results

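The regions described here are the sub-threshold candidates of T20F7.1, the pooled regions that follow directly after the authors' retained peaks when all 30000 pooled candidates are ranked by signal value. They are as many as the retained peaks and make up 8.62% of the list. They were chosen by the pooled signal value, so signal values and everything that feeds them are described and not tested. Chromatin had been prepared from whole Caenorhabditis elegans L4 larvae of both sexes, pooled and aged 48 hours after starvation as hatchlings, by sonication and precipitation with an anti-GFP antibody, in 2 biological replicates that form 1 group. All animals carried the transgene wgIs754, which expresses T20F7.1::TY1::EGFP::3xFLAG and supplies unc-119(+), in an unc-119 (tm4063) mutant strain. RefSeq annotates the T20F7.1 protein as C2H2-type domain-containing. The C2H2 zinc finger is a fold that many DNA-binding proteins use. Whole animals were used, so weak occupancy in many cells and strong occupancy in few cells cannot be told apart.

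In chromatin immunoprecipitation the tagged protein is pulled down with the DNA near it, and a peak caller lists candidate regions, most of which are background when the caller is run permissively. The irreproducible discovery rate (IDR) procedure then judges how far the ranks of regions repeat between replicates and keeps the regions above a limit. Among the DNA words that mark C. elegans regulatory sequence are those with a GATA core, recognised by GATA zinc finger factors such as ELT-2 and ELT-7 of the intestine, the E-box read by basic helix-loop-helix proteins, and GC-rich words common in promoters of broadly expressed genes.

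The sequences at the summits are shown first, on assembly WBcel235 (ce11), plus strand, as the summit base with 50 bases on either side. In the members at gene starts, capitals mark the word TGATAA, the word CTTATC and the word CTGATA or their reverse complements, which may overlap and are the words with the smallest p at these summits. The first 4 sites are among the 10 promoter members with the highest signal in both replicates, and lie 174 bp (C28G1.10), 274 bp (nhr-3), 364 bp (fem-3) and 239 bp (ppm-2) upstream of the gene start.
C28G1.10, chrX:8846898-8846998: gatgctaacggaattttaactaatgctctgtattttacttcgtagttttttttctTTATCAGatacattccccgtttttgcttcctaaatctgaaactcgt
nhr-3, chrX:14558180-14558280: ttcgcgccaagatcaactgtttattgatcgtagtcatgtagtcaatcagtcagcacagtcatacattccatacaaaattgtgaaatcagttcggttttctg
fem-3, chrIV:9104552-9104652: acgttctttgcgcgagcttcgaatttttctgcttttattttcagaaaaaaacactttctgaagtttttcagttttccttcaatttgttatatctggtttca
ppm-2, chrIII:4650205-4650305: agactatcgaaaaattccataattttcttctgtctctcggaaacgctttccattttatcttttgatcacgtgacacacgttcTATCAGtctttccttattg
C28G1.10, which encodes a protein with a ubiquitin-conjugating core domain, held a marked word close to the middle of the window, and ppm-2, a protein phosphatase 2C gene, held one farther out. The windows of nhr-3, a nuclear hormone receptor gene, and fem-3, a sex-determination gene, held none of the 3 words.

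The next 3 sites were picked after their values were seen, from among the highest-ranked members at gene starts that hold TGATAA and lie outside annotated untranslated regions, and each was matched in both replicates. They lie upstream of acox-3 (an acyl-coenzyme A oxidase of peroxisomal lipid breakdown), paqr-1 (an adiponectin receptor relative) and hira-1 (a histone chaperone).
acox-3, chrIV:6248619-6248719: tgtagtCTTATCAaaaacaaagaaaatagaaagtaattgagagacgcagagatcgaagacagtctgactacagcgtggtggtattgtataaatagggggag
paqr-1, chrIV:6555550-6555650: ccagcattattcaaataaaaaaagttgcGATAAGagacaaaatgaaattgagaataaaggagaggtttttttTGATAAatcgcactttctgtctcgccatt
hira-1, chrIII:5190781-5190881: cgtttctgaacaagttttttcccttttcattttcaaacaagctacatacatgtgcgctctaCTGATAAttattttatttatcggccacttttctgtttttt
The last 2 sites lie beside tRNA genes on X, and here capitals mark the bases that belong to the annotated tRNA gene. The summit was 42 bp from T18D3.t1 and 50 bp from F25F6.t2.
T18D3.t1, chrX:12458239-12458339: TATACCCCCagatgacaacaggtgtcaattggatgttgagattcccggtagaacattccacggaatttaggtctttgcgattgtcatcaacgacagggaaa
F25F6.t2, chrX:4444914-4445014: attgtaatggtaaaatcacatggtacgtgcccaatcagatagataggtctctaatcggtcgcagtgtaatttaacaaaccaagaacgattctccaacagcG
In both, the summit base itself lay outside the tRNA gene.

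Pooled signal values of the sub-threshold candidates ran from 71.2 to 95.6 with a median of 79.6, a 1.34-fold range. Retained peaks ran from 95.6 to 6064 with a median of 144, and the equal number of regions next in rank (the following regions) from 62.0 to 71.2. There was no gap at either limit, since the values on the 2 sides were 95.56 and 95.57 at the upper limit and 71.24 and 71.24 at the lower one. In the authors' deposited q-values, the sub-threshold candidates had a q of 0.266 to 0.581, retained peaks a q of 0.000981 to 0.267, and following regions a q of 0.580 to 0.621. The retained peaks were exactly the highest pooled ranks, so the sub-threshold candidates are set apart from them by pooled signal value. Of the sub-threshold candidates, 2557 had the same width of 440 bp and 29 another width. No candidate of any rank lay within 20 kb of T20F7.1 itself or of unc-119.

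Replicate lists were searched for a summit within 100 bp of each pooled summit. Of the sub-threshold candidates, 2192 (84.8%, 95% Wilson interval 83.3 to 86.1) were matched in both replicate lists, against 2442 retained peaks (94.4%) and 2032 following regions (78.6%). A further 167 were matched in replicate 1 alone, 213 in replicate 2 alone and 14 in neither. The replicate lists also hold 30000 regions each, and the matches had a median rank of 4983.5 in replicate 1 and 4873.5 in replicate 2. When each replicate list was limited to as many regions as there are retained peaks, 2 sub-threshold candidates were in both, against 1673 retained peaks and 1 following region. Down to the rank of the weakest sub-threshold candidate, 435 (16.8%) sub-threshold candidates, 2246 (86.9%) retained peaks and 3 (0.116%) following regions were in both.

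Replicate signal values of the 2192 matched candidates had a median of 38.0 in replicate 1 and 41.1 in replicate 2, against 72.6 and 75.05 for retained peaks and 30.9 and 33.8 for following regions. On the log2 scale, replicate 2 exceeded replicate 1 by a median of 0.12 with an SD of 0.58 (n = 2192), against 0.03 with an SD of 0.47 (n = 2442) for retained peaks. Of the matched candidates, 132 were over 2-fold higher in replicate 2 and 78 over 2-fold higher in replicate 1. Single sites departed in either direction. The site at iars-1, an isoleucyl-tRNA synthetase gene, had 28.02 in replicate 1 and 61.9 in replicate 2, and that at snr-5, a small nuclear ribonucleoprotein gene, had 58.7 and 24.5.

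**Figure D1:**
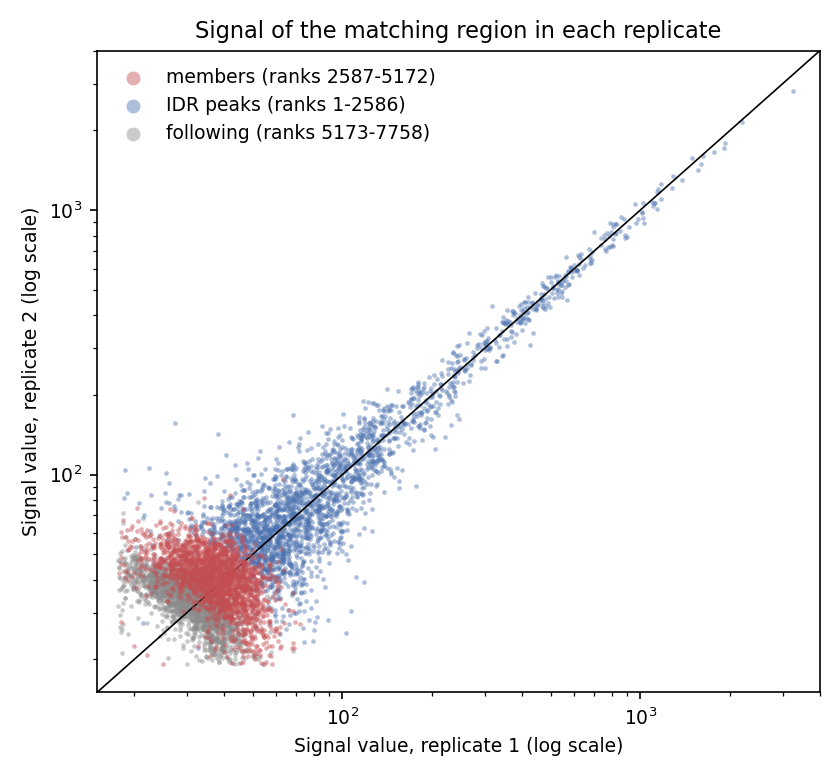
Signal value of the matching region in replicate 1 (x axis) and replicate 2 (y axis), both on log scales, for sub-threshold candidates (red), retained IDR peaks (blue) and following regions (grey) that were matched in both lists; the line marks equal values. The red points form a band across the line between 17.8 and 96.0, below most blue points and above most grey ones.

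The sites strongest in both replicates at gene starts belonged to genes with different roles. The highest lower value was at fbxl-1, an F-box and leucine-rich repeat gene, with 63.0 in replicate 1 and 96.0 in replicate 2, but its pooled value was 74.96 and a retained peak lay 207 bp away. The next 9 had replicate values between 45.8 and 55.9, so their order does not exceed the replicate differences. tag-72, an mRNA cap guanine-N(7) methyltransferase gene, had 48.3 and 49.4 in replicates 1 and 2, at a site also in the window of C25A1.1. etr-1, which encodes an RNA-binding protein with RRM domains, had 49.8 and 48.2 and held TGATAA at the summit. F32D8.13, a phosphomevalonate kinase gene of the mevalonate pathway, had 47.1 and 53.1, with a retained peak 793 bp away. C28G1.10 had 48.8 and 46.85, nhr-3 had 46.7 and 46.8, and fem-3 had 46.4 and 47.2, at a site also in the window of C01F6.14. pals-19, of the pals family, had 46.7 and 46.5, ZK1248.19, with an ICAT domain, had 46.5 and 46.5, and ppm-2 had 45.8 and 55.9, with a retained peak 815 bp away.

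At the upper limit of the ranks, the promoter members were at F46H5.3, a putative arginine kinase gene (rank 2590, 52.0 in replicate 1 and 42.4 in replicate 2), nhr-97 (rank 2594, 35.45 and 53.1) and tbc-6, a TBC domain gene (rank 2595, 37.1 and 55.15). The summit at tbc-6 was 201 bp from a retained peak. At the lower limit were a chemoreceptor gene (rank 5164), fbxa-6, an F-box gene near the end of III whose member also lay in the windows of 2 other genes (rank 5169, 46.6 and 25.8), and tyms-1, the thymidylate synthase gene (rank 5171, 28.7 and 49.7). At both ends of the rank range, single sites differed between replicates by more than the whole 1.34-fold range of pooled values.

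Gene starts were less common at these sites than at retained peaks and more common than among the regions that follow. A summit was called a promoter summit if it lay at most 500 bp before or 100 bp after an annotated protein-coding gene start. Of the sub-threshold candidates, 599 (23.2%, interval 21.6 to 24.8) were promoter summits, against 1188 retained peaks (45.9%, 44.0 to 47.9) and 434 following regions (16.8%, 15.4 to 18.3). The difference was −22.8 percentage points from retained peaks (95% Newcombe interval −25.3 to −20.2, two-sided Fisher's exact test, adjusted p = 6.27e-66 over 17 location tests) and 6.38 points from following regions (4.21 to 8.55, exact adjusted p = 6.27e-08). With a narrower window (250 bp before, 50 bp after) the share was 13.5%, and both differences kept their sign and stayed under the 0.05 threshold. These p-values are across regions of 1 group, take neighbouring regions as independent, and say nothing about spread between animals.

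The shares moved with rank inside the sub-threshold candidates too. In 5 consecutive blocks of 517 or 518 ranks, from the highest to the lowest, 29.98%, 28.05%, 19.3%, 20.7% and 17.8% were promoter summits. The 518 weakest retained peaks had 30.9%. In the blocks of ranks beyond the following regions, promoter shares lay between 11.8% and 16.1%.

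Introns held 845 sub-threshold candidates (32.7%), against 19.1% of retained peaks (difference 13.6 points, interval 11.2 to 15.96, exact adjusted p = 3.65e-28) and 36.7% of following regions (−3.98 points, −6.57 to −1.39, exact adjusted p = 0.00543). Intergenic sequence outside promoter windows held 767 (29.7%), against 24.7% of retained peaks (exact adjusted p = 0.000154) and 32.0% of following regions (exact adjusted p = 0.117). Coding exons held 141 (5.45%) and 3′ untranslated regions 159 (6.15%), both above the 2.59% and 3.71% of retained peaks (exact adjusted p = 7.69e-07 and 0.000154). Shares in 5′ untranslated regions (0.928%) and in non-coding genes (1.97%) did not pass the threshold against either set. Repeated sequence, where the 31 bases around the summit occur more than once in the genome, was rare, with 25 sites (0.967%) against 60 retained peaks (2.32%, exact adjusted p = 0.000352) and 18 following regions (0.696%, exact adjusted p = 0.406).

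**Figure D2:**
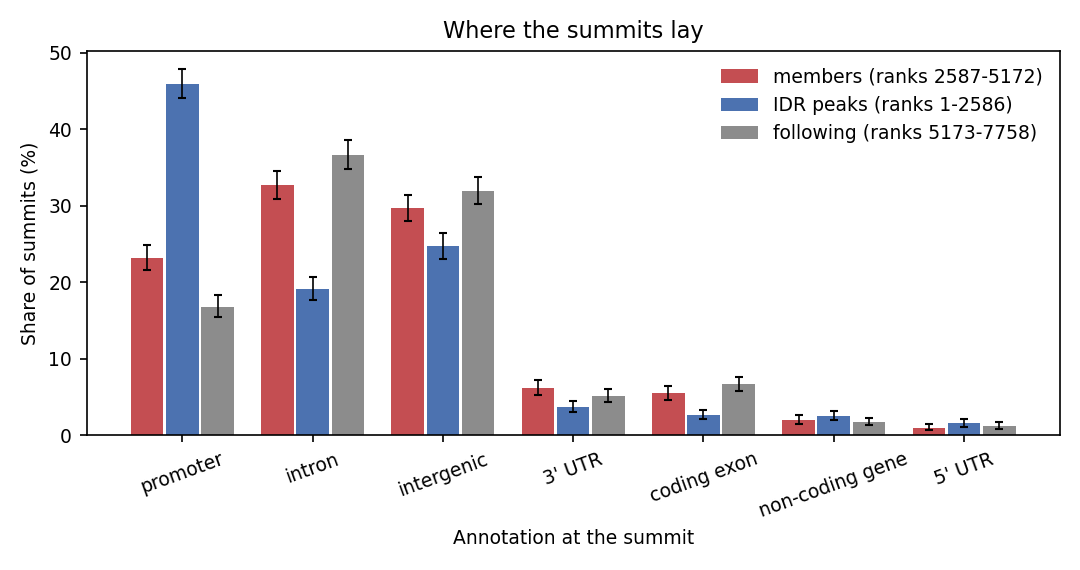
Share of summits (y axis, %) by annotation at the summit (x axis) for sub-threshold candidates (red), retained IDR peaks (blue) and following regions (grey); bars show shares and error bars 95% Wilson intervals. Promoter shares were 23.2%, 45.9% and 16.8% in that order of colours, and intron shares 32.7%, 19.1% and 36.7%.

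Some sub-threshold candidates sat beside retained peaks. A retained summit lay within 1 kb of 267 of them (10.3%), against 165 following regions (6.38%; difference 3.94 points, 2.44 to 5.46, exact adjusted p = 1.17e-06), and within 250 bp of 125 of them (4.83%), against 71 following regions (2.75%). The median distance to the nearest retained summit was 6219 bp, against 9866 bp for following regions. Leaving out the 267 left the promoter share at 23.1%.

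The X chromosome was the most frequent location, with 597 sub-threshold candidates (23.1%) on a chromosome that makes up 17.7% of the assembly. That is 33.7 per Mb, against 25.3 retained peaks and 35.0 following regions per Mb on X. The share on X exceeded that of retained peaks, 17.4%, by 5.72 points (3.54 to 7.90, exact adjusted p = 4.87e-06 over 14 chromosome tests) and did not pass the threshold against the 24.0% of following regions (−0.889 points, −3.20 to 1.42, exact adjusted p = 0.507). Chromosomes I and III held smaller shares than of retained peaks, 13.3% against 16.6% and 13.1% against 16.9% (exact adjusted p = 0.00493 and 0.000942). On the autosomes, 78.6% lay in the middle 25 to 75% of the chromosome, against 77.1% of retained peaks and 78.4% of following regions, differences that did not pass the threshold (exact adjusted p = 0.269 and 0.908).

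The words at the summits differed from those nearby. Every 6-mer, a word together with its reverse complement, was scored as present or absent within 50 bp of the summit and in a flank of the same length 300 to 400 bp below it, and was tested by a two-sided exact binomial test with Benjamini-Hochberg adjustment. At 0.05, 153 words (7.36%) were more frequent at the summits and 280 (13.5%) less frequent. Against the flank on the other side, 151 and 268 words were called, of which 103 and 176 were called with both flanks. TGATAA had the smallest p: 506 summits (19.6%, interval 18.1 to 21.1) held it against 261 flanks (10.1%), a 1.94-fold difference (exact adjusted p = 3.35e-18). In the flank on the other side the share was 8.59% (exact adjusted p = 6.91e-27), and 9.37% of 99283 windows of this length spaced evenly over the genome held the word. The word is the GATA-type element, and a match in a window is a description of the sequence, not evidence of a bound factor.

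Of the other 9 words with the smallest p, 8 were more frequent at the summits and 1 less frequent. CTTATC was at 8.78% of summits and 4.49% of flanks, CTGATA at 8.08% and 3.98%, and ATGATA at 9.94% and 5.45% (exact adjusted p = 6.28e-07, 6.28e-07 and 9.63e-07), and all 3 share the GATA core with TGATAA and can overlap it. TAAACA was at 12.4% of summits and 7.502% of flanks, ATAAAC at 11.02% and 6.81%, and ATAAGA at 9.90% and 5.88%. AAAATA was at 36.5% and 29.3%, AAATAT at 27.5% and 21.2%, and GATCCA, the less frequent one, at 1.47% of summits and 4.18% of flanks. Several of these words had similar shares at following summits. There CTGATA was at 6.11%, ATGATA at 9.94%, TAAACA at 12.4%, ATAAAC at 10.5% and ATAAGA at 8.70%. AAATAT was at 28.5% and GATCCA at 1.93% of them. By Fisher's exact test none of these words passed the threshold between the sub-threshold candidates and the following regions. At least 1 of the 3 words marked in the sequences was present at 620 summits (24.0%), against 559 retained peaks (21.6%) and 508 following regions (19.6%).

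Base composition differed along with these words. G and C made up 31.9% of bases at the sub-threshold summits (SD 6.96 over regions) and 35.6% of their flanks, against 39.5% and 35.8% at retained peaks and 30.2% and 34.9% at following regions. Of the 153 words, 90 hold 5 and 27 hold 6 A or T. Among the 192 words with 5 A or T, the median ratio of summits to flanks was 1.23, and TGATAA, at 1.94, stood at place 2. Words that contain GATA were called more frequent in 14 of 48 cases (29.2%) and less frequent in 3. Of 2032 words without GATA, 139 (6.84%) were called more frequent. The words with and without GATA were not matched for base composition. The part of base composition in these calls was not tested. In windows of 25 bp on either side, 44 words were more frequent at the summits, and TGATAA again had the smallest p (10.8% of summits, 5.03% of flanks, exact adjusted p = 3.87e-11).

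TGATAA was most frequent close to the summits. Counted in bins of 20 bp, it occurred 124 times per bin within 60 bp of the sub-threshold summits and 66.9 times per bin from 200 to 300 bp away, against 112.5 and 69.8 at retained peaks and 96.3 and 69.8 at following regions. Within the sub-threshold candidates the word was found in every kind of location: at 136 of 599 promoter summits (22.7%), 157 of 767 intergenic summits (20.5%), 32 of 159 in 3′ untranslated regions (20.1%), 146 of 845 intronic summits (17.3%) and 21 of 141 in coding exons (14.9%), with intervals that overlap. The share at promoter summits was 22.7% (interval 19.5 to 26.2), against 151 of 1188 (12.7%, 10.9 to 14.7) for retained promoter peaks and 76 of 434 (17.5%) for following ones, and these differences were not tested.

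**Figure D3:**
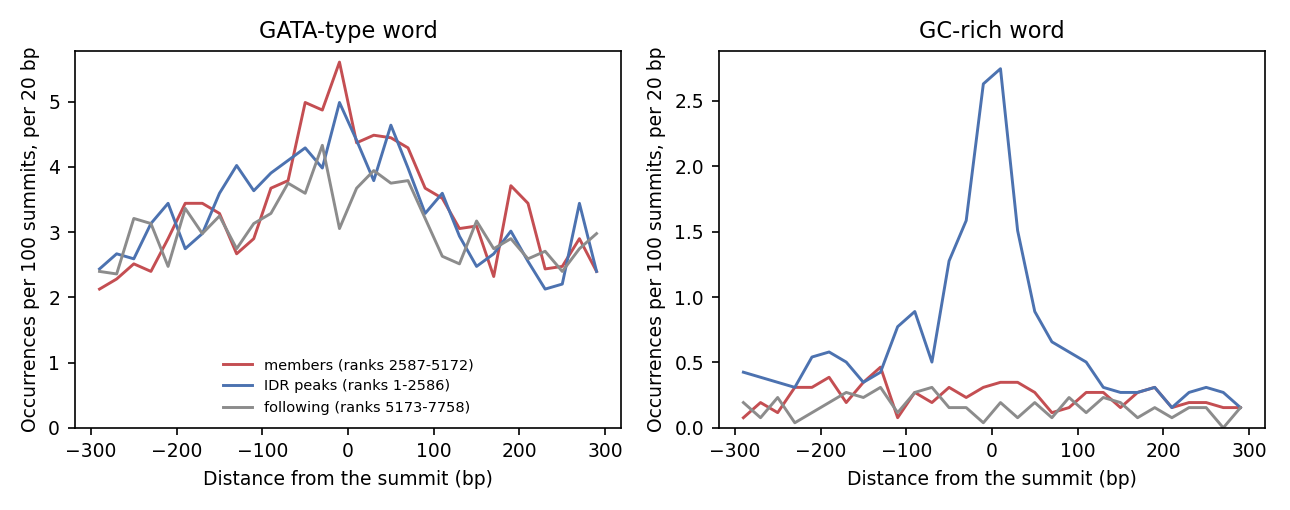
Occurrences of the GATA-type word TGATAA (left) and the GC-rich word ACGCGC (right), each with its reverse complement, per 100 summits in bins of 20 bp (y axis) by distance from the summit (x axis), for sub-threshold candidates (red), retained IDR peaks (blue) and following regions (grey). Within 60 bp the counts behind the red line average 124 occurrences per bin for the GATA-type word and 112.5 behind the blue line, and for the GC-rich word 7.83 and 45.8.

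GC-rich words were less frequent at sub-threshold than at retained summits. Against retained summits, 324 words (15.6%) were more frequent and 619 (29.8%) less frequent at sub-threshold summits by Fisher's exact test. Of the 192 words with 5 A or T, 161 were more frequent and 1 less frequent. Of the 492 words with 2 A or T, 257 were less frequent. The part of base composition in these calls was not tested. ACGCGC was at 36 sub-threshold summits (1.39%), against 232 retained summits (8.97%; difference −7.58 points, −8.80 to −6.41, exact adjusted p = 1.24e-34), and at 1.23% of genome windows. Outside promoter windows the difference in ACGCGC was smaller, with 1.06% against 4.15% (−3.09 points, exact adjusted p = 3.11e-07). Over all locations, CGTCTC was at 2.75% against 10.4%, CGCGCA at 1.08% against 6.65% and GACGCA at 2.36% against 9.16%. ACACTC, which holds 3 A or T and is not GC-rich, was at 3.52% against 11.5%. No word with fewer than 3 A or T was more frequent at the sub-threshold summits, and TGATAA did not pass the threshold between the 2 sets (19.6% against 17.3%, difference 2.24 points, 0.128 to 4.36, exact adjusted p = 0.0806). Outside promoter windows the direction turned, with 18.6% against 21.2% (−2.62 points, exact adjusted p = 0.143). Without the members within 1 kb of a retained peak it passed, with 19.9% against 17.3% (exact adjusted p = 0.0449).

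Against following regions, 10 words (0.481%) were more frequent and 8 (0.385%) less frequent at sub-threshold summits. AGAGAA was at 13.1% against 8.82% and GAGAGA at 7.54% against 4.37% (exact adjusted p = 0.00178 for both), and CTTATC at 8.78% against 5.80% (exact adjusted p = 0.0133). TAAAAA was at 35.6% against 41.6% and AAAATA at 36.5% against 42.5% (exact adjusted p = 0.00751 and 0.00793). TGATAA was at 19.6% against 15.3% (difference 4.25 points, 2.19 to 6.32, exact adjusted p = 0.0133), and CACGTG, the palindromic E-box, at 72 summits (2.78%) against 33 (1.28%, exact adjusted p = 0.0266). Outside promoter windows, with fewer summits, Fisher's exact test called 0 words in place of these 18, with 196 at an unadjusted p under 0.05. The differences there were 3.75 points for TGATAA, 2.84 for CTTATC, 2.86 for GAGAGA and 1.41 for CACGTG, against 4.25, 2.98, 3.17 and 1.51 over all locations. In the candidate list of replicate 1 alone it called 1, and in that of replicate 2 alone 12, of which 4 were among the 18. In the list of replicate 1, TGATAA was at 17.98% of the regions of the same ranks against 17.1% of those that follow (exact adjusted p = 0.869), and in the list of replicate 2 alone at 18.7% against 15.3% (exact adjusted p = 0.115). In the flanks below the pooled sub-threshold summits, AGAGAA was at 11.8%, GAGAGA at 6.96% and CACGTG at 2.17%. None of these differences passed the threshold (exact adjusted p = 0.353, 0.636 and 0.362). With the flank on the other side CACGTG passed it, at 1.585% (exact adjusted p = 0.0254), and AGAGAA and GAGAGA did not. All 3 were more frequent at retained summits, at 18.4%, 14.6% and 4.87% (exact adjusted p = 1.54e-06, 1.79e-14 and 0.000522).

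TGATAA and ACGCGC ran in opposite directions with rank among retained peaks. There, in 5 consecutive blocks, from the strongest to the weakest, TGATAA was at 6.38%, 11.2%, 21.7%, 23.02% and 24.3% of summits, and ACGCGC at 20.3%, 11.2%, 6.58%, 3.87% and 2.90%. Within the sub-threshold candidates the 5 blocks had TGATAA at 21.7%, 19.5%, 19.7%, 16.6% and 20.3%, and ACGCGC at 2.32%, 0.580%, 1.93%, 0.774% and 1.35%. Beyond the following regions TGATAA was at 11.4% to 14.5% of summits per block.

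**Figure D4:**
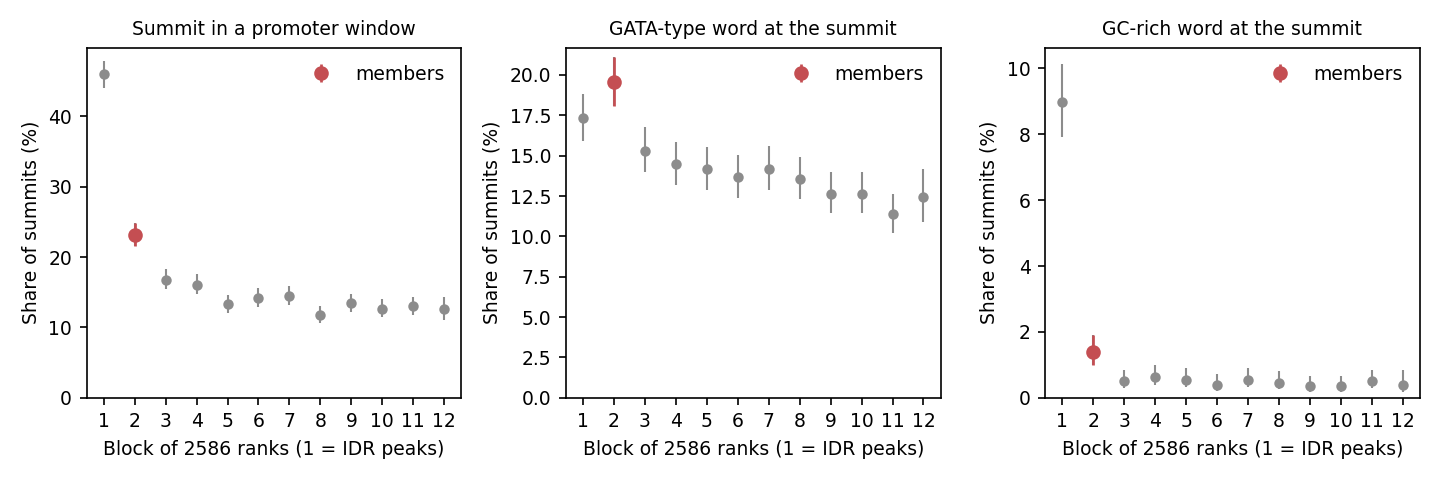
Share of summits (y axis, %) in a promoter window (left), with the GATA-type word TGATAA within 50 bp (middle) and with the GC-rich word ACGCGC within 50 bp (right), in consecutive blocks of equal numbers of pooled ranks (x axis; block 1 is the retained peaks, and the last block is shorter, with 1554 ranks); points are shares and lines 95% Wilson intervals. The sub-threshold candidates (red, block 2) have 23.2%, 19.6% and 1.39%, and block 1 has 45.9%, 17.3% and 8.97%.

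Of 19973 protein-coding genes, 654 (3.27%) had a sub-threshold candidate in the promoter window, against 1460 (7.31%) with a retained peak and 463 (2.32%) with a following region. Both a sub-threshold candidate and a retained peak were found at 37 genes, which is 5.66% of the 654, beside 7.31% of all genes, and 2.53% of the 1460, beside 3.27% of all genes. The promoter summits lay a median of 182 bp upstream of the nearest gene start (quartiles 328.5 and 69 bp), values that the window of 500 bp before to 100 bp after the start largely sets. Of the 599, 58 (9.68%) lay in the windows of more than 1 gene, against 295 of 1188 retained promoter peaks (24.8%). The gene count was 371 with the narrower window and 387 when the lower-ranked members were left out.

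Lists of broadly expressed machinery had fewer genes with a sub-threshold candidate than with a retained peak, as did all protein-coding genes together. The count of each of the 30 name-based lists is read against 3.27% of all genes for the sub-threshold candidates and 7.31% for retained peaks. Of the 30 lists, 17 exceeded the 3.27%. Cytoplasmic ribosomal proteins had 2 of 81 genes (2.47%) with a sub-threshold candidate, against 46 with a retained peak. They were rpl-34 (pooled signal 92.3), with TGATAA at the summit, and rpl-26 (85.4). The rpl-34 site lay nearer the start of ppm-1.H (307 bp against 366 bp), and the rpl-26 site also lay in the window of cpf-1. The respiratory chain and ATP synthase had 5 of 75 (6.67%) against 27. This list was led by isp-1, the Rieske iron-sulphur protein of complex III (93.5), atp-4 (86.2) and cox-17, a copper chaperone of cytochrome oxidase (83.3). Mitochondrial ribosomal proteins had 5 of 70 (7.14%) against 19 (mrpl-19, 91.3). Translation factors and tRNA synthetases had 5 of 65 (7.69%) against 17, led by iars-1 (93.2), eif-3.G (79.0) and hars-1 (77.7). The sites of isp-1, iars-1 and hars-1 also lay in the windows of islo-1, pges-2 and T11G6.2, in that order. The proteasome had 0 of 33 against 13, and splicing factors 3 of 59 (5.1%) against 21. Of these 3 splicing genes, rsp-5 and snr-3 share a single site (93.6), which was matched in replicate 2 alone.

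Single genes with the strongest member of their list covered the rest of this machinery. They were usp-5, a deubiquitinase gene (94.4), rpb-5, an RNA polymerase II subunit gene (94.7), pfd-4, a prefoldin subunit gene (93.7), atg-7, which acts in autophagosome conjugation (90.9), vha-15, a vacuolar ATPase subunit gene (89.2), tin-13, of mitochondrial protein import (86.9), and apc-2, of the anaphase-promoting complex (84.9). rpac-19, an RNA polymerase subunit gene that the name pattern also put in the DNA replication list, had 86.4 and was its only gene there. rpb-5 and rpac-19 also had a retained peak in the window, and the rpb-5 site was matched in replicate 2 alone. The sites of usp-5 and apc-2 also lay in the windows of nse-1 and dcr-1, and that of pfd-4 in those of B0035.3 and B0035.22.

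Vesicle trafficking had the highest share of any list, 13 of 123 genes (10.6%), against 27 (21.95%) with a retained peak and 5 (4.07%) with a following region. None of the 13 had a retained peak, as was the case for 617 of all 654 genes. vps-39, of the HOPS tethering complex, had 42.65 in replicate 1 and 50.4 in replicate 2. syx-18, a syntaxin gene, had 68.1 and 35.6, and rab-39, a small GTPase gene, had 42.1 and 49.7. Of the 13, 2 had no match in replicate 1 and 3 none in replicate 2. Autophagy had 3 of 32 genes (9.38%), atg-7, sqst-1 and epg-9, against 9 with a retained peak.

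Detoxification enzymes had 13 of 185 genes (7.03%), against 11 (5.95%) with a retained peak and 8 (4.32%) with a following region; ugt-47, ugt-54 and ugt-12, all UDP-glucuronosyltransferase genes, led with 95.2, 91.55 and 90.9. Digestive proteases, lysozymes and saposins had 7 of 75 (9.33%), against 7 and 4, and spp-6 and spp-2 share a site. ilys-5, an invertebrate lysozyme gene, had 63.9 in replicate 1 and 32.3 in replicate 2, spp-18, a saposin gene, 53.3 and 45.6, and asp-9, an aspartyl protease gene, 48.0 and 36.7. Of the 7 genes, 4 were higher in replicate 1 and 3 in replicate 2. Nuclear hormone receptors had 14 of 269 (5.204%), against 15 and 9, led by nhr-97 (95.4), nhr-3 (92.1) and nhr-110 (91.1).

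F-box and MATH-BTB proteins, substrate adaptors of ubiquitin ligases, had 17 of 400 (4.25%), against 13 and 8, led by fbxa-73 (88.3), fbxa-95 (87.5) and fbxa-76 (87.5). fbxa-76 shares its site with fbxa-77. Beside 22.7% of all promoter summits, TGATAA was at the summit for 8 of the 17 F-box and MATH-BTB genes, 4 of the 7 digestive genes and 4 of 13 detoxification genes. It was there for 4 of 14 nuclear hormone receptor genes, 3 of 13 vesicle trafficking genes and 0 of 5 neuropeptide genes. For mitochondrial ribosomal and translation genes it was 1 of 5 each, and for respiratory chain genes 0 of 5. These counts are small and were not tested. Neuropeptides and insulins had 5 of 144 (3.47%), against 1 and 2, with nlp-24 (84.4), nlp-35 (83.55) and nlp-27 (80.2) the highest. Chemoreceptors had 14 of 1368 (1.02%), against 7 and 8, and cuticle collagens 4 of 182 (2.20%), against 1 and 4, with col-124 (78.9) the highest. Homeobox factors (ceh-88, 78.2), C-type lectins (clec-88, 75.5), muscle genes (act-1, 81.2) and germline genes (mes-6, of the Polycomb-type complex, 95.1) had 1 to 3 genes each. The clec-88 site also lay in the window of ani-2. The name-based lists of histones, sperm genes, heterochronic genes and mRNA cap genes caught 0; tag-72, described above, is an mRNA cap gene that the name pattern does not include. In all, 5 lists had more genes with a sub-threshold candidate than with a retained peak, 4 had as many and 21 had fewer; these counts were not tested.

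**Figure D5:**
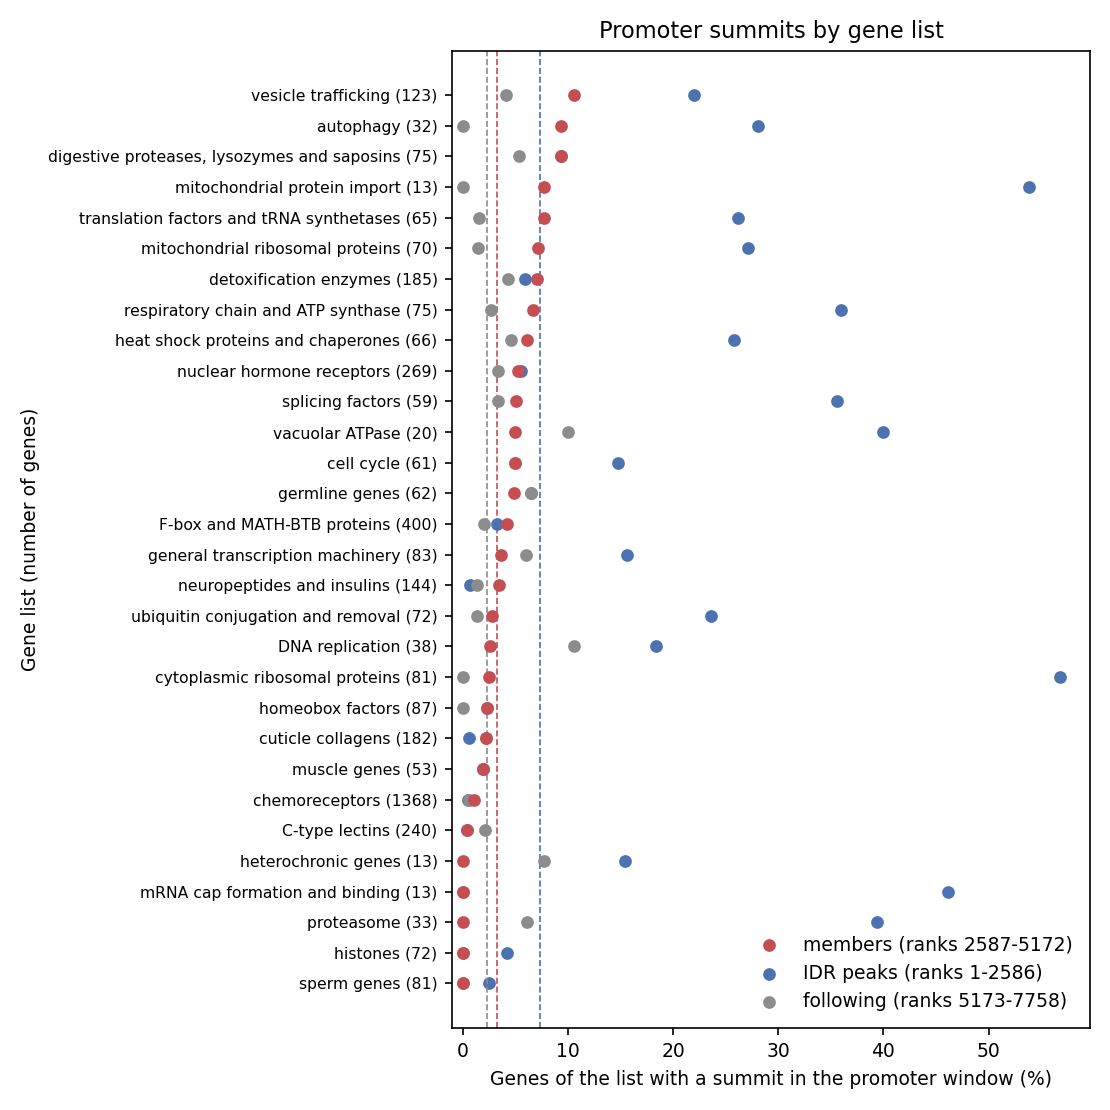
Share of the genes of each name-based list (rows, number of genes in brackets) with a summit in the promoter window (x axis, %) for sub-threshold candidates (red), retained IDR peaks (blue) and following regions (grey); dashed lines mark the shares over all protein-coding genes, 3.27%, 7.31% and 2.32%. Red points lie between 0 and 10.6%, while blue points reach 56.8% in the cytoplasmic ribosomal list.

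Small non-coding genes were counted where a summit lay within 250 bp of the gene. For tRNA genes, the adaptors of translation made by RNA polymerase III, 69 of 612 (11.3%, interval 9.01 to 14.03) had a sub-threshold candidate, against 143 (23.4%, 20.2 to 26.9) with a retained peak and 27 (4.41%, 3.05 to 6.34) with a following region. The strongest were F25F6.t2, with 44.1 in replicate 1 and 48.7 in replicate 2, F55F3.t1 with 68.9 and 22.1, and T18D3.t1 with 63.7 and 27.45. F22F1.t4 and F22F1.t5 share 1 site with 54.25 and 36.2. 4 of these 5 genes, at 3 of the 4 sites, were higher in replicate 1, by more than the pooled range. The 69 genes stood near 63 different summits.

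For snoRNA genes, whose RNAs guide RNA modification, 15 of 346 (4.34%) had a sub-threshold candidate, against 61 (17.6%) with a retained peak and 11 (3.18%) with a following region. C26C6.13 and F25H2.15 were matched in replicate 2 alone, at 58.6 and 59.9, and so was D1046.6, at 27.9. For snRNA genes the counts were 5 of 129, against 14 and 3. The strongest were R07E5.16, whose 31 summit bases occur 20 times in the genome and smy-1 (38.7 and 45.95). For miRNA genes they were 7 of 261, against 13 and 4, led by cel-mir-4934 (49.4 and 39.4), cel-mir-236 (48.1 and 43.6) and cel-mir-356a (44.8 and 35.7). cel-mir-356a and cel-mir-356b overlap on opposite strands and share their site. For snoRNA, snRNA and miRNA genes the Wilson intervals of the shares overlapped those of following regions. The counts of non-coding genes were not tested, and no share over genome positions stands beside them.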

How the data were processed

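The authors deposited 4 region lists on ce11: the IDR-retained peaks (2586) and 3 candidate lists of 30000 regions, 1 per replicate and 1 of both pooled. The deposited signal value is the authors' height per region, on a scale not stated, and the deposited −log10 q-value is also theirs. Names of the aligner and peak caller were not given in the sources used here. A control alignment is named in the text deposited beside the lists and was not analysed here. No read counts are listed, so depth is unknown and intervals cover sampling of regions only.

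Regions were ranked by pooled signal value, ties by chromosome and summit, and ranks 2587 to 5172 are the 2586 members; ranks 5173 to 7758 are the following regions. Genes came from Ensembl release 115 and sequence from RefSeq WBcel235, whose chromosome lengths no region exceeds. The 101 bases around summits were searched for all 2080 6-mers on both strands. Shares were compared by two-sided Fisher's exact test and words in flanks by exact binomial test, with Benjamini-Hochberg adjustment within each family (17 location tests, 14 chromosome tests, 2080 words per comparison) at 0.05. Named genes are those nearest the 10 promoter members with the highest lower replicate value, the 3 highest-ranked and 3 lowest-ranked promoter members, up to 3 genes per list and the non-coding genes with the highest pooled signal. Chemoreceptor genes are counted and not named. The members, lists and tests were chosen with earlier results of these data known. Scripts used Python 3.11.15, numpy 2.4.6, pandas 2.3.3, scipy 1.17.1 and matplotlib 3.10.9 and were tested on simulated data. Alternatives were other windows, distances, flanks, rank limits and single replicates.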

Additional observations from a re-analysis of the deposited data

How the results depend on the processing

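Of 79 recomputed values over 14 results, 58 stayed within the limits set for a change and 21 moved. A reversal could be scored only for the differences in promoter share. The difference in TGATAA from retained peaks, which turned outside promoter windows, was not among the 14 results. Both differences in promoter share kept their sign and their side of the threshold under all 7 alternatives run for each. The promoter share was 13.5% with 250 bp before and 50 bp after the start, 32.99% with 1000 and 200 bp, 27.6% from all transcript starts and 26.99% for the higher-ranked members alone; genes numbered 371 with the narrower window and 387 for the higher-ranked members. The share matched in both replicates was 60.2% at 50 bp, 97.4% at 250 bp and 16.8% down to the last member rank of each replicate list. Within 1 kb of a retained peak lay 11.7% of the higher-ranked members, and at 500 and 2000 bp the share was 5.26% and 22.7%. Within 25 bp of the summit, TGATAA was at 10.8%, 44 words exceeded the flank and 3 differed from following summits, against 0 outside promoter windows, where fewer summits entered and TGATAA differed by 3.75 points in place of 4.25. The same rank ranges in single replicate lists gave 105 to 152 words above the flank, 891 to 970 against retained peaks and 1 to 12 against following summits. Of the 433 words called in either direction against the flank, 181 were called alike in the list of replicate 2 and 236 in that of replicate 1. Of the 943 called against retained peaks, 753 and 776 were called alike against the highest ranks of the replicate lists, in that order. In these lists promoter shares were 22.6% to 23.5% and TGATAA was at 17.98% to 18.7%. The middle one of 3 equal chromosome parts held 59.5% of autosomal members, 21-base words marked 2.36% as repeated, and the higher-ranked members lay near 43 tRNA genes. The TGATAA alternatives and the restriction to members matched in both replicates (23.1% at promoters, 19.7% with TGATAA) were chosen after seeing the data. No paired analysis was possible because there is 1 group. Read counts and the control were not analysed here, so neither sequencing depth nor background stands beside any value.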

Other observations

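piRNA genes, the short 21U loci clustered on chromosome IV, were counted too: 291 of 15363 (1.89%, Wilson interval 1.69 to 2.12) had a sub-threshold candidate within 250 bp, against 50 (0.326%) with a retained peak and 399 (2.60%) with a following region. The 291 genes stood near 127 summits, so neighbouring genes share sites. Chromosome IV held 26.2 sub-threshold candidates per Mb, against 24.0 retained peaks and 29.2 following regions. Pseudogenes had 35 of 2128 genes (1.64%), against 24 and 42. lincRNA genes had 11 of 194, against 16 and 17, and antisense RNA genes 9 of 100, against 9 and 6. None of the 20 annotated rRNA genes had a summit of the 3 sets within 250 bp. These counts were not tested.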
